A study of Mus musculus with 15 samples.

Results

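The subject is a group of 10 genes of collagen-rich matrix and of the hepatic stellate cell: Col1a1, Col1a2, Col3a1, Col4a1, Col4a2, Sparc, Timp1, Acta2, Dcn and Lrat. They were chosen by name from 35540 gene symbols, and the estimated counts of all transcripts of a symbol were added up. All 10 passed the filter on low counts, which 13916 genes passed. The libraries are bulk RNA from mouse liver after 8 weeks of high-fat diet, shared by every group: 5 from Txnip knockout mice (KO), 5 from knock-in mice that carry C247S in TXNIP (C247S KI) and 5 from wild type mice (WT). C247S alters the cysteine of TXNIP that binds thioredoxin. The labels give neither the construction of the knockout allele nor the age or strain of the mice. Sample titles also hold a number, 1176 to 1288 in KO, 3082 to 3154 in C247S KI and 3116 to 3121 in WT. Its meaning is not stated. In comparisons with KO, a difference that goes with this number cannot be told apart from one that goes with genotype. Whether the 5 libraries of a group are 5 animals is not stated, and p-values therefore refer to the spread among libraries, which may be technical.

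Hepatic stellate cells lie between hepatocytes and the sinusoidal endothelium and store vitamin A as retinyl esters. In liver injury they turn into contractile cells that deposit fibrillar collagen, which makes them the chief source of scar matrix. Fibrillar collagens I and III form the fibres of that scar, whereas collagen IV forms the mesh of basement membranes and of the sinusoidal wall, where endothelial cells make it as well. Type I collagen is built from the chains of Col1a1 and Col1a2, type III from Col3a1 alone, and the common type IV network from those of Col4a1 and Col4a2. Sparc encodes a secreted protein that binds collagen, Timp1 an inhibitor of matrix metalloproteases, Acta2 the smooth muscle actin of contractile cells, Dcn the proteoglycan decorin that coats collagen fibrils, and Lrat the enzyme that esterifies retinol in quiescent stellate cells.

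In GRCm38 the genes lie on 8 chromosomes. Col1a1 (ENSMUSG00000001506, chr11:94936224-94953042, plus strand) and Sparc (ENSMUSG00000018593, chr11:55394500-55423183, minus strand) share chromosome 11. Col1a2 (ENSMUSG00000029661) is at chr6:4504814-4541544 on the plus strand and Col3a1 (ENSMUSG00000026043) at chr1:45311538-45349706 on the plus strand. Timp1 (ENSMUSG00000001131) is at chrX:20870166-20874735, Acta2 (ENSMUSG00000035783) at chr19:34241090-34255590 and Dcn (ENSMUSG00000019929) at chr10:97479609-97518143. Lrat (ENSMUSG00000028003, chr3:82892579-82903973) lies 13.67 Mb from Txnip on the same chromosome. Col4a1 (ENSMUSG00000031502, chr8:11198423-11312826, minus strand) and Col4a2 (ENSMUSG00000031503, chr8:11312805-11449287, plus strand) point away from each other and overlap by 22 bases at their starts.

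That shared start is printed because the levels of both chains are compared in this text. Beside it stand the upstream stretches of Col3a1, the gene with the largest fall among the fibrillar chains, and of Col1a2. Upstream here means before the RefSeq start. The Col1a2 stretch is free of exons but lies inside the annotated span of the gene, which begins further upstream. All sequences are from RefSeq on GRCm38.p6, plus strand, 5′ to 3′. The Col4 stretch is chr8:11312805-11312826, the Col3a1 stretch is chr1:45311288-45311537, which ends at the base before the start, and the Col1a2 stretch is chr6:4505370-4505492, with 125 bases between it and the RefSeq start. Capitals mark GGGCGG, the GC box letters, in the Col4 and Col1a2 stretches and TATAAA, the TATA box letters, in that of Col3a1.
Col4a1 and Col4a2 shared start: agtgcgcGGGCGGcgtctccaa
Col3a1 upstream: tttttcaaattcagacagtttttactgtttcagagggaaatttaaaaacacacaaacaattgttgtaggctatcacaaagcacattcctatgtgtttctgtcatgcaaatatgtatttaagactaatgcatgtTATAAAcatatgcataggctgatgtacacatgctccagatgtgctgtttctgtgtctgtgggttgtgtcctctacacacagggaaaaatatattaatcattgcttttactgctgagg
Col1a2 upstream: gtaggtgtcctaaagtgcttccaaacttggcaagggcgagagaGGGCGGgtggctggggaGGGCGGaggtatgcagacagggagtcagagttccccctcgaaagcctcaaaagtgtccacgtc

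RefSeq promoters were matched by symbol for 8 of the 10 genes, with Col1a1 and Dcn the exceptions. The letters TATAAA were searched, with those of the CCAAT box, of GGGCGG and of the E-box CACGTG, on both strands in the 250 bases before each start. Not all of these windows are free of annotated exons. Exons of the partner gene cover those of Col4a1 and Col4a2. The longest exon-free stretch is 7 bases for Sparc, 33 for Acta2 and 123 for Col1a2, whose windows hold exons of the same gene. TATAAA was found for Col3a1 alone of the 8, at -117 from the start, while 12.4% of all 32851 promoters hold it. GGGCGG stood at -205 and -188 of Col1a2, and the windows of Col4a2, Lrat and Timp1 held it too, against 32.7% of all promoters. CCAAT was found for Col1a2, Col4a1, Col4a2, Lrat and Timp1, against 33.8%, and CACGTG for none of the 8, against 6.02%. The GGGCGG of the shared Col4 start falls in its overlap and so lies in both genes. No 2 matches in the printed stretches overlap, and a match is a description of the sequence only.

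The labelled tissue was checked with Alb, the serum albumin gene of hepatocytes, which held at least 28610 CPM (counts-per-million, scaled by TMM factors) in each of the 15 libraries. This check does not show whether RNA of another tissue was present as well. The defining stellate cell markers were present in all 15 as well, with Reln at 12.9 to 50.6 CPM, Rgs5 at 24.7 to 71.7 CPM and Colec11 at 24.7 to 39.0 CPM. Totals lay between 18047577 and 23379940 estimated counts. Txnip, at chr3:96557957-96561883, was at 70.9, 123, 108, 74.2 and 119 CPM in the KO libraries. It was at 168, 280.2, 99.9, 208 and 205 CPM in C247S KI and at 180.4, 196, 319.9, 218 and 197 CPM in WT. The KO libraries lay below all WT libraries but still held Txnip reads, with a log2 fold change of -1.17 against WT (SE 0.24, edgeR adjusted p = 0.00887).

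Library KO 5 stood apart from the other 14 in many of the genes described here. Col1a1 was at 21.3 CPM in KO 5 and at 111 to 164 CPM in KO 1 to KO 4, which puts KO 5 at 0.139 times their median. The same ratio was 0.216 for Col1a2, 0.169 for Acta2, 0.419 for Col3a1 and 0.717 for Sparc, and in these 5 genes KO 5 was the lowest of the 15 libraries. Col4a1 (0.969), Col4a2 (1.0), Dcn (0.876), Lrat (0.800) and Timp1 (0.789) differed less in this library. Of 12295 genes with a mean of at least 1 CPM, 284 were under 1/3 of the median of the rest of their group in KO 5, against 20 to 115 in the other libraries.

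Transcripts typical of lung epithelium, which is not the labelled tissue, and of granulocytes were present in the other 14 libraries and low in KO 5. In those 14, Scgb1a1 was at 91.0 to 310 CPM and Sftpc at 64.5 to 168 CPM, against 24.0 and 15.4 CPM in KO 5. Why lung transcripts were present was not tested, and which libraries depart from liver is not read from these values. The lists of such markers were chosen after their values were seen. The lung epithelial markers, with Sftpc of surfactant protein C and Scgb1a1 of club cells among them, summed to 52.8 CPM in KO 5 and to 402 to 501 CPM in KO 1 to KO 4, with 287 to 512 CPM in C247S KI and 308 to 442 CPM in WT libraries. Of the 13 lung markers with a mean of at least 1 CPM, 13 were lowest in KO 5, and the median ratio to the other KO libraries was 0.154. Granulocyte and marrow markers, such as S100a8 and Ngp, summed to 40.4 CPM in KO 5 and 277 to 379 CPM in KO 1 to KO 4, with 253 to 427 CPM in C247S KI and 129 to 490 CPM in WT. Of these 10 markers 9 were lowest in KO 5. Markers of kidney, pancreas and skin stayed at or below 0.285 CPM each in all 15 libraries. The part of these transcripts in the collagen results was not tested. Values without KO 5 are given for the 10 genes in the comparisons of KO, and lost calls are named for genes of the other lists.

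**Figure D1:**
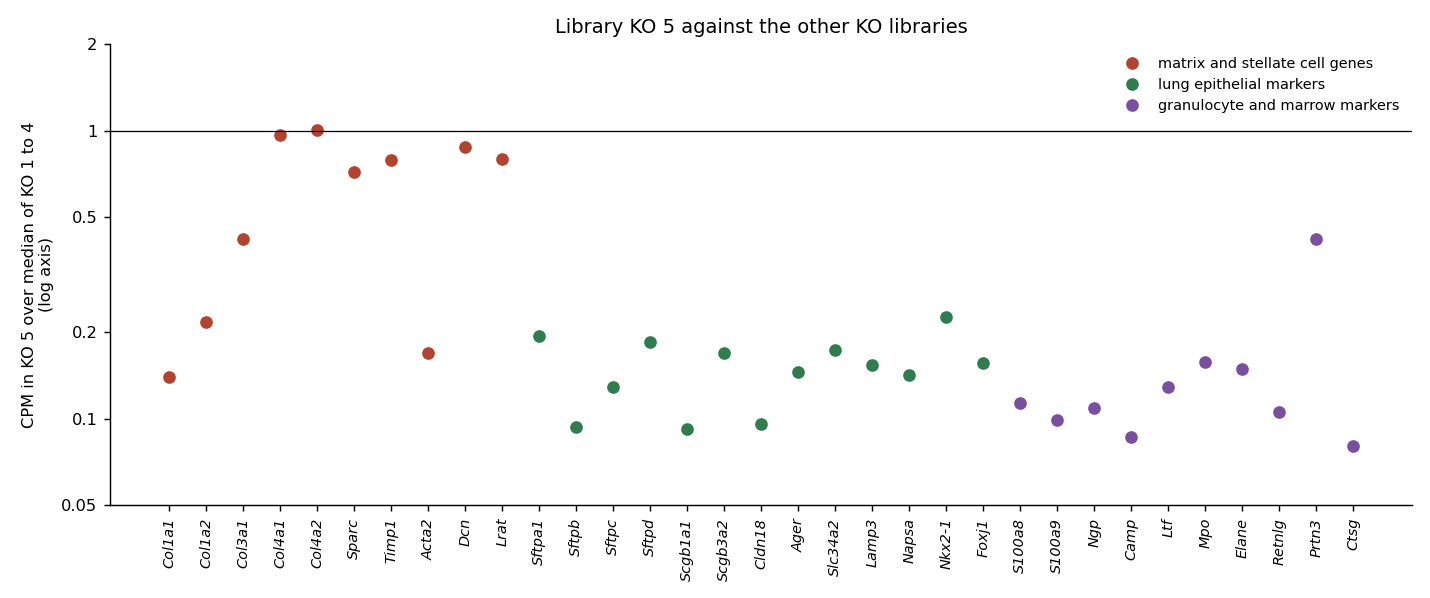
Level in library KO 5 divided by the median of KO 1 to KO 4 (log axis) for the 10 matrix and stellate cell genes and for lung epithelial and granulocyte markers, 1 point per gene. Col1a1, Col1a2 and Acta2 lie among the markers, at 0.139, 0.216 and 0.169, whereas Col4a1 and Col4a2 lie at 0.969 and 1.0.

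Between KO and WT livers, Col3a1, Col4a1 and Sparc fell and none of the 10 genes rose. All 10 had a negative log2 fold change, with a median of -0.688 against -0.00988 over all genes tested. The 3 genes called lower compare with 4.19% of all genes called lower, 2.56% called higher and 6.75% called in either direction, at an adjusted p below 0.05. Every KO library lay below every WT library in Col1a1, Col1a2, Col3a1, Col4a1 and Sparc, which is 5 of 10, against 5.09% of all genes. None of the 10 had all KO libraries above all WT libraries, against 4.51% of all genes. Without KO 5, Col4a1 and Sparc were called and Col3a1 was not. In bulk RNA, fewer cells of a type and less RNA per cell cannot be told apart.

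Among the fibrillar chains, Col3a1 was at 34.8, 46.7, 30.8, 59.6 and 17.1 CPM in KO livers, against 63.0, 113, 96.6, 76.6 and 79.8 CPM in WT livers. All KO values lay below the WT values, with KO 4 next to WT 1. Col3a1 averaged 37.8 ± 16.1 CPM in KO and 85.7 ± 19.2 CPM in WT (SD, n = 5 each), and fell by 1.18 on the log2 scale (SE 0.32, edgeR adjusted p = 0.0332). The call did not hold without KO 5, where the log2 fold change was -0.99 (edgeR adjusted p = 0.0671). It was also lost without KO 1 (0.0597), KO 3 (0.0771), WT 2 (0.0716), WT 3 (0.0610) or WT 4 (0.0534), all edgeR adjusted p-values.

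Col1a1, with the highest mean CPM of the 10 genes, was at 148, 159.8, 111, 164 and 21.3 CPM in KO livers, against 198, 168, 192, 164 and 200.2 CPM in WT livers. KO 4 and WT 4 were both at 164 CPM, so the groups barely separated. The log2 fold change of -0.61 had a 95% interval of -1.35 to 0.13 (edgeR adjusted p = 0.317) and was -0.34 without KO 5 (edgeR adjusted p = 0.335). Col1a2, its partner chain, was at 76.0, 79.5, 54.3, 82.5 and 16.8 CPM in KO livers, against 105, 102, 117, 97.6 and 94.6 CPM in WT livers. The highest KO library lay below the lowest WT library, yet the log2 fold change of -0.74 did not pass (95% interval -1.35 to -0.13, edgeR adjusted p = 0.129). Without KO 5 it was -0.49 (edgeR adjusted p = 0.0983).

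Of the collagen IV chains, Col4a1 separated the KO libraries from all others. Its levels were 25.6, 23.2, 26.9, 25.4 and 24.7 CPM in KO livers, against 32.0, 61.1, 58.2, 48.4 and 61.8 CPM in WT livers. The KO libraries were close to each other, with a coefficient of variation of 5.41%, against 24.0% in WT, where WT 1 was the lowest. Col4a1 averaged 25.2 ± 1.36 CPM in KO and 52.3 ± 12.6 CPM in WT (SD, n = 5 each) and fell by 1.06 (SE 0.21, edgeR adjusted p = 0.00746). Without KO 5 the log2 fold change was -1.04 (edgeR adjusted p = 0.0204).

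The other chain, Col4a2, was at 24.7, 20.2, 25.4, 24.5 and 24.6 CPM in KO livers, against 20.8, 43.4, 33.1, 31.3 and 46.7 CPM in WT livers. WT 1 lay within the KO range, and the other 4 WT libraries lay above it. The log2 fold change was -0.55 (95% interval -0.95 to -0.16, edgeR adjusted p = 0.0815). Without KO 5 it was -0.56 (edgeR adjusted p = 0.136). Leaving out each library in turn gave -0.68 to -0.42 with edgeR adjusted p of 0.0157 to 0.188, and the threshold was passed in the fit without WT 1 alone.

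Sparc, the collagen-binding glycoprotein, was at 68.4, 87.6, 65.7, 94.9 and 56.0 CPM in KO livers, against 115, 129, 129, 125 and 109.9 CPM in WT livers. The groups did not overlap. Sparc averaged 74.5 ± 16.2 CPM in KO and 121.5 ± 8.63 CPM in WT (SD, n = 5 each) and fell by 0.71 (SE 0.14, edgeR adjusted p = 0.0076). Without KO 5 the log2 fold change was -0.61 (edgeR adjusted p = 0.0206).

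Timp1, the protease inhibitor that is induced in fibrosis, was near the limit of measurement, with 3 to 6 counts per KO library and 1 to 29 per WT library. That is 0.152 to 0.311 CPM in KO, against 0.0517 to 1.40 CPM in WT, where WT 1 held the single count and the other 4 libraries 12 to 29. The log2 fold change of -1.77 had a wide interval of -3.02 to -0.51 and did not pass (edgeR adjusted p = 0.0802). Without KO 5 it was -1.68 (edgeR adjusted p = 0.155). Over the fits without 1 library it ran from -2.06 to -1.38 (edgeR adjusted p of 0.0181 to 0.197), and it passed in the fit without WT 1 alone.

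The remaining genes overlapped between KO and WT. Acta2, of contractile cells, ranged from 2.80 to 24.4 CPM in KO livers and from 15.8 to 30.4 CPM in WT livers, with a log2 fold change of -0.67 (edgeR adjusted p = 0.283), or -0.40 without KO 5 (edgeR adjusted p = 0.40). Reads shared with near-identical actin genes had been divided by estimation, so the level of Acta2 is uncertain. Decorin, Dcn, was at 65.0 to 91.4 CPM in KO and 76.4 to 112 CPM in WT (-0.37, 95% interval -0.77 to 0.03, edgeR adjusted p = 0.253), or -0.32 without KO 5. Lrat, the retinol esterifying enzyme, was at 6.91 to 10.99 CPM in KO and 7.14 to 15.7 CPM in WT (-0.30, 95% interval -0.88 to 0.29, edgeR adjusted p = 0.566), or -0.23 without KO 5. These intervals leave room for falls as well as for no change.

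**Figure D2:**
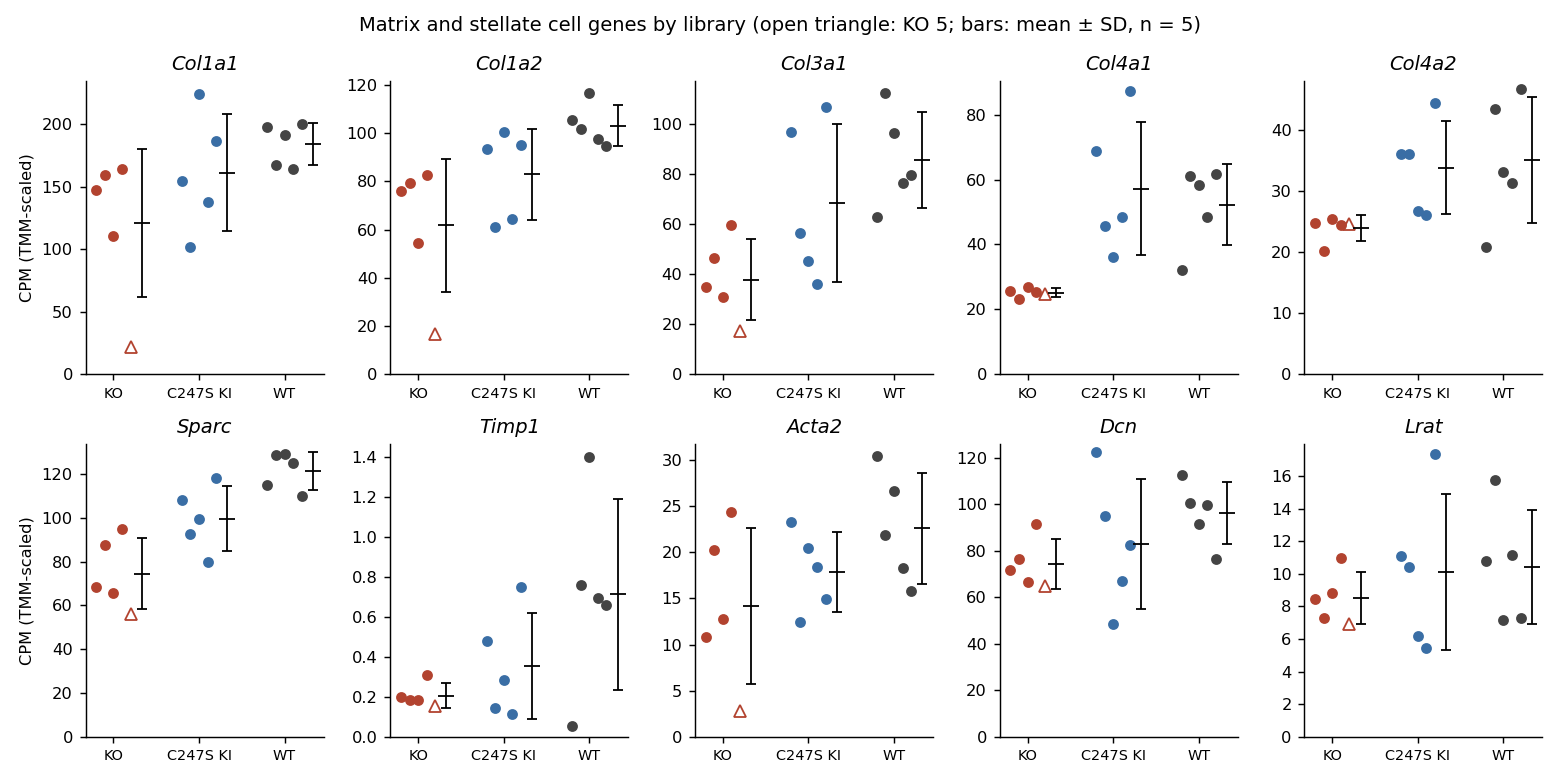
TMM-scaled CPM of the 10 genes in each library, with KO, C247S KI and WT from left to right, and the mean ± SD of 5 libraries beside the points. The Col4a1 points of KO lie in a narrow band from 23.2 to 26.9 CPM, below all points of the other groups, and KO 5 (open triangle) is far below the other KO points in Col1a1, Col1a2 and Acta2.

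KO and C247S KI livers differed in Col4a1, which was the single gene of the 10 to pass, against 5.85% of all genes called lower, 4.41% called higher and 10.3% in either direction. This comparison shares the KO libraries with the one against WT. Col4a1 was at 25.6, 23.2, 26.9, 25.4 and 24.7 CPM in KO livers, against 68.8, 45.7, 36.1, 48.4 and 87.2 CPM in C247S KI livers. All 5 KO libraries were lower than all 5 C247S KI libraries. It fell by 1.19 (SE 0.21, edgeR adjusted p = 0.00221), or by 1.18 without KO 5 (-1.18, edgeR adjusted p = 0.00656).

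Col4a2 was at 24.7, 20.2, 25.4, 24.5 and 24.6 CPM in KO livers, against 36.01, 35.97, 26.7, 26.1 and 44.4 CPM in C247S KI livers. Here too every KO library lay below every C247S KI library, which held for 2 of the 10 genes (Col4a1 and Col4a2) and for 4.94% of all genes, while the opposite held for 0 of the 10 and 4.73% of all genes. The difference in Col4a2 was -0.50 (95% interval -0.90 to -0.11) and missed the threshold (edgeR adjusted p = 0.0952). Col3a1 differed by -0.86 (95% interval -1.52 to -0.19, edgeR adjusted p = 0.0912) and Sparc by -0.42 (95% interval -0.72 to -0.12, edgeR adjusted p = 0.0666). In the remaining 6 genes the log2 fold change ran from -0.81 for Timp1 to -0.16 for Dcn. Without KO 5 the values were -0.51 for Col4a2, -0.67 for Col3a1 and -0.33 for Sparc (edgeR adjusted p = 0.138, 0.171 and 0.15), and ran from -0.72 for Timp1 to -0.07 for Acta2 in the remaining 6. Over the 10 genes the median was -0.422, against -0.0291 over all genes.

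C247S KI and WT livers did not differ in any of the 10 genes by the edgeR test, where 0.0647% of all genes were called higher and 0.0216% lower, 0.0862% in all. None of the 10 had an unadjusted p below 0.05, and 0 were called by DESeq2 or limma-voom. No gene separated the 5 C247S KI from the 5 WT libraries, as 0.589% of all genes did from below and 0.726% from above. The lowest p of the 10 was that of Sparc, at 108, 92.6, 99.6, 79.7 and 118 CPM in C247S KI livers against 115, 129, 129, 125 and 109.9 CPM in WT livers. C247S KI 5 lay inside the WT range, and the log2 fold change was -0.29 (95% interval -0.58 to 0.01, edgeR adjusted p = 0.529).

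Col4a1 was the one gene with a positive value between C247S KI and WT, 0.13 (95% interval -0.31 to 0.57, edgeR adjusted p = 0.849), from 57.3 ± 20.6 CPM in C247S KI and 52.3 ± 12.6 CPM in WT (SD, n = 5 each). Without C247S KI 5, the highest library, it was -0.07. For Col3a1 the C247S KI libraries were at 97.0, 56.6, 45.2, 36.2 and 107 CPM, against 63.0, 113, 96.6, 76.6 and 79.8 CPM in WT livers. They spread on both sides of WT, and the interval of -0.98 to 0.33 includes changes as large as those of several genes between KO and WT. The widest interval was that of Timp1, from -2.12 to 0.20.

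**Figure D3:**
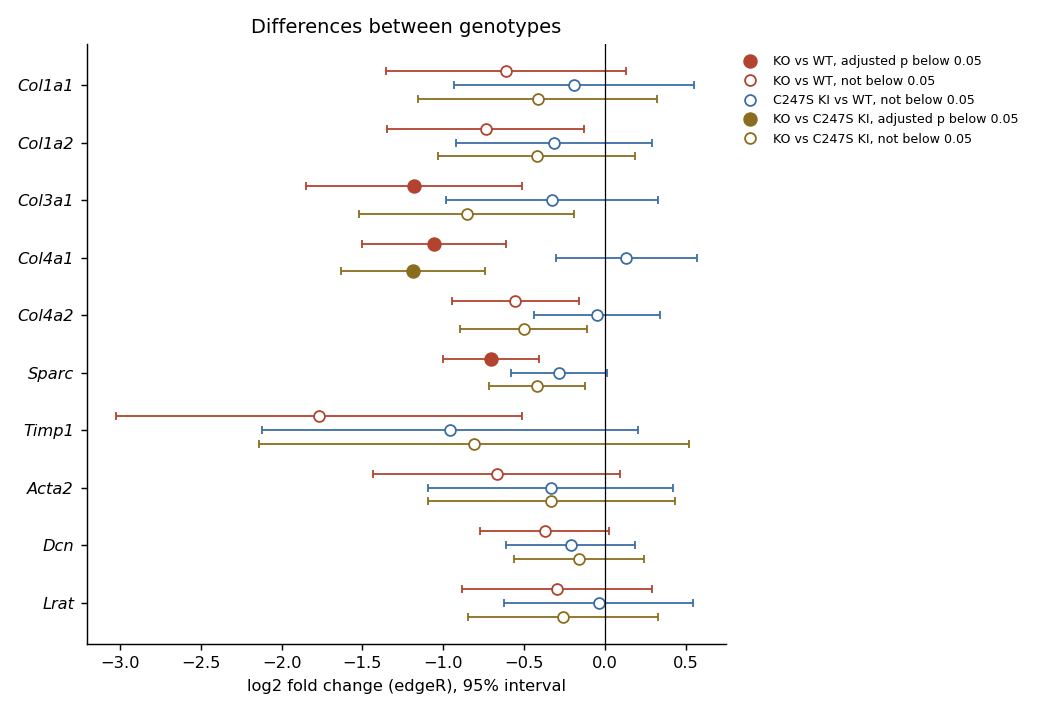
Log2 fold change with its 95% interval for the 10 genes in KO vs WT, C247S KI vs WT and KO vs C247S KI, with filled points where the edgeR adjusted p is below 0.05. Col4a1 is filled in both comparisons of KO, at -1.06 and -1.19, and at 0.13 in C247S KI vs WT its interval crosses 0.

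Within a library, the ratio of Col4a1 to Col4a2 does not depend on the scaling between libraries. It was 1.04, 1.15, 1.06, 1.04 and 1.0 in KO libraries. The values were 1.91, 1.27, 1.35, 1.86 and 1.97 in C247S KI and 1.54, 1.41, 1.76, 1.55 and 1.32 in WT libraries. The highest KO ratio lay below the lowest of both other groups, so the fall of Col4a1 was not matched by one of equal size in Col4a2. The ratio is given as a description, with no test. For type I collagen, Col1a1 over Col1a2 was 1.94, 2.01, 2.04, 1.99 and 1.27 in KO libraries, against 1.88, 1.65, 1.64, 1.68 and 2.12 in WT libraries, and KO 5 was the lowest of all.

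**Figure D4:**
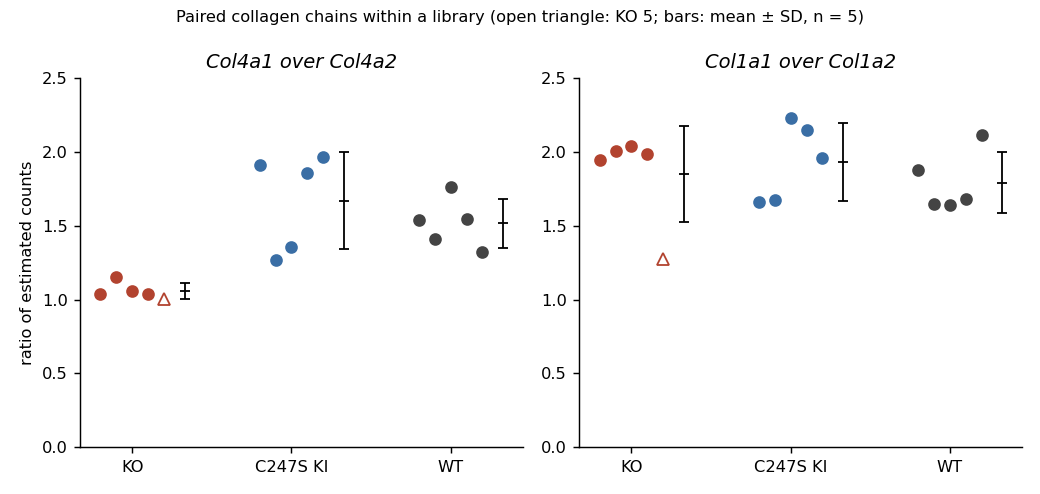
Ratio of estimated counts of paired collagen chains in each library, for Col4a1 over Col4a2 (left) and Col1a1 over Col1a2 (right), with the mean ± SD of 5 libraries. The KO ratios of the type IV chains lie between 1.0 and 1.15, below all ratios of the other groups, and KO 5 has the lowest type I ratio at 1.27.

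Most counts of a gene came from 1 transcript in the majority of these genes. The leading protein-coding transcript held at least 99.97% of Col1a1, 98.8% of Col4a2 and 100% of Lrat in every library. Col4a1 took at least 92.5% of its counts from its full-length transcript, of 6615 bases, in every library, KO libraries included. Sparc was split between a transcript with 66.6% to 68.2% of the counts, as group means, and another with 30.6% to 32.2%. Acta2 had 2 transcripts, and the longer held 59.6% in KO, against 68.2% in WT. For Timp1, with 1 to 29 counts per library, either of its 2 transcripts held from 0% to 100% in single libraries.

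On a scale divided by transcript length (counts per kilobase, then scaled to the library's sum, as in TPM), Sparc and Dcn were the highest of the 10 genes, at 51.0 ± 8.23 and 60.9 ± 4.73 in KO livers, against 90.3 ± 7.93 and 86.2 ± 8.32 in WT livers (SD, n = 5 each). In WT these 2 did not differ beyond their spread. The fibrillar chains followed, with Col1a1 at 29.2 ± 13.9 in KO and 49.4 ± 6.45 in WT, Col1a2 at 25.3 ± 12.8 and 36.3 ± 4.23, and Col3a1 at 15.6 ± 6.05 and 36.2 ± 9.29 in the same order. Acta2 had a level of 15.7 ± 8.18 in KO and 25.5 ± 5.63 in WT. The collagen IV chains were lower still, with Col4a1 at 6.79 ± 1.19 in KO and 14.8 ± 4.01 in WT, and Col4a2 at 5.51 ± 0.964 and 8.82 ± 3.31. Lrat (2.30 ± 0.383 in KO, 3.10 ± 1.17 in WT) and Timp1 (0.351 ± 0.0865 in KO, 1.33 ± 0.846 in WT) were the lowest. In WT, Col1a2 and Col3a1 had overlapping spreads, and in KO so did Col1a1 with Col1a2 and Acta2 with Col3a1.

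Across the 15 libraries, log2 CPM of Col1a1 and Col1a2 rose and fell together (Pearson r = 0.975, or 0.881 over 14 libraries without KO 5). For Col3a1 and Sparc r was 0.943 (0.914 without KO 5), and for Col4a1 and Col4a2 0.876 (0.876). Col1a1 and Acta2 had an r of 0.903 that was 0.572 without KO 5. These values are a description over libraries that share genotype and depth. Among 11818 genes ranked, those most like Col1a1 were Thbs1 (r = 0.983), Vcan (0.972), Col6a2 (0.965), Flnc (0.963) and Mrc2 (0.960), and without KO 5 their r ran from 0.724 to 0.876. Most like Col4a1 were Plekha1 (0.970), Myadm (0.965), Cxadr (0.958), Ets2 (0.956) and Adamts2 (0.955), whose r without KO 5 ran from 0.950 to 0.967.

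Among other matrix genes, few members of a list passed between KO and WT, except for 6 of 22 matrix proteases and inhibitors, against 6.75% of all genes in either direction. Every count here and below stands against 4.19% of all genes called lower and 2.56% called higher in KO against WT, and nothing particular to a list is read from it. Of 25 other collagen chains tested, 0 were called higher and 1 lower: Col4a5, a further type IV chain, at 1.12 ± 0.297 CPM in KO and 2.20 ± 0.781 CPM in WT (SD, n = 5 each), with a log2 fold change of -0.97 (edgeR adjusted p = 0.0331). Its call was lost without KO 5 (edgeR adjusted p = 0.0799). The list's median was -0.453, with 18 of 25 values negative. Of 18 basement membrane partners of collagen IV, 0 were higher and 1 lower: Lamc1, the laminin γ1 chain, with 11.4 ± 0.767 CPM in KO and 18.4 ± 3.89 CPM in WT (SD, n = 5 each; -0.68, edgeR adjusted p = 0.0127). Lamc1 was also lower in KO than in C247S KI (-0.74, edgeR adjusted p = 0.00516), as were the laminin γ3 chain Lamc3 and the nidogen Nid1, 3 of 18 in all, where 5.85% of all genes were called lower. The libraries of both groups overlapped in Lamc3 and Nid1, whose calls were lost without KO 5 (edgeR adjusted p = 0.0713 and 0.0645).

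Collagen folding, crosslinking and trimming had 3 of 25 genes lower and 0 higher in KO than in WT, with a median of -0.344. They were Serpinh1, the collagen chaperone HSP47 (-0.63, edgeR adjusted p = 0.0280), the lysyl oxidase Loxl2 (-0.88, edgeR adjusted p = 0.0333) and the procollagen N-proteinase Adamts2 (-0.74, edgeR adjusted p = 0.0439). Serpinh1 was at 11.7 to 25.9 CPM in KO and at 26.7 to 30.1 CPM in WT. Without KO 5, 0 of this list were called, and likewise 0 without KO 3. Proteoglycans and matrix glycoproteins had 2 of 28 lower and 0 higher, Efemp2 and Fbln5, which both serve elastic fibres. None was called without KO 5, nor without KO 2.

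The matrix proteases and their inhibitors changed in both directions, with 2 of 22 higher and 4 lower. Serpine2, protease nexin-1, was at 47.8 ± 2.06 CPM in KO and 11.9 ± 4.86 CPM in WT (SD, n = 5 each), and rose by 2.01 (SE 0.30, edgeR adjusted p = 0.00123). The aggrecanase Adamts4 fell by 2.70 (edgeR adjusted p = 0.00346), the urokinase receptor Plaur by 1.42 (edgeR adjusted p = 0.00169) and Adamts1 by 1.24 (edgeR adjusted p = 0.00944). This list was called in 6 of 22 genes without KO 5 as well.

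TGF-beta and PDGF signalling, the chief inducer and mitogen of stellate cells, had 3 of 27 genes lower and 0 higher in KO than in WT. They were the ligand Tgfb3 (-1.08, edgeR adjusted p = 0.0129), the SMAD corepressor Skil (-0.77, edgeR adjusted p = 0.0231) and the matricellular target Ccn2, which had 4.63 to 16.1 CPM in KO and 17.3 to 23.6 CPM in WT (-0.82, edgeR adjusted p = 0.0324). Without KO 5 the call of Skil was lost (edgeR adjusted p = 0.0651). Skil, the receptor Tgfbr1 and the latency protein Ltbp4 were lower in KO than in C247S KI, and the call of Ltbp4 was lost without KO 5 (edgeR adjusted p = 0.0857). Of the 24 genes of these and the cell type lists that the naming rule gave as called between KO and WT, 14 were also called without KO 5. Among lost calls, the log2 fold change of Pth1r was 0.52 with KO 5 and 0.53 without it, and that of Serpinh1 -0.63 and -0.50. Leaving out other KO libraries cost calls as well. Over all genes 939 were called, against 760 without KO 1, 521 without KO 2, 571 without KO 3, 611 without KO 4 and 546 without KO 5.

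Of the markers of quiescent stellate cells, 1 of 21 was higher and 1 lower in KO than in WT, with a median of -0.0787. Pth1r, the parathyroid hormone receptor, had 11.2 ± 1.29 CPM in KO and 7.82 ± 1.02 CPM in WT, and Ednrb, the endothelin B receptor, had 6.35 ± 0.804 CPM in KO and 13.1 ± 2.73 CPM in WT (SD, n = 5 each). The call of Pth1r was lost without KO 5 (edgeR adjusted p = 0.0565). The summed level of this list was 249 to 301 CPM in KO, 235 to 372 CPM in C247S KI and 266 to 354 CPM in WT libraries. Markers of contractile and activated cells had 2 of 16 lower and 0 higher, Lgals1 (-1.22, edgeR adjusted p = 0.00342) and Cnn2 (-0.67, edgeR adjusted p = 0.0130). Their sum was 206 to 362 CPM in KO, with KO 5 the lowest at 206 CPM, and 379 to 478 CPM in WT.

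Other cell types of the liver were measured with their marker lists too. Endothelial markers, from cells that also make collagen IV, had 2 of 16 lower and 0 higher in KO than in WT: Lyve1 of the sinusoids (-1.41, edgeR adjusted p = 0.00348) and Pecam1 (-0.80, edgeR adjusted p = 0.00347). Their summed level overlapped, at 267 to 460 CPM in KO and 236 to 554 CPM in WT. KO 5 was the highest KO library, with KO 1 to KO 4 at 267 to 414 CPM. The defining markers Stab2 and Clec4g were at 29.6 to 57.6 CPM and 31.8 to 50.7 CPM in KO, against 19.8 to 55.8 CPM and 22.1 to 51.7 CPM in WT. The third defining marker, Cdh5, was at 9.20 to 17.1 CPM in KO and 16.9 to 31.2 CPM in WT (-0.67, SE 0.20), which did not pass the threshold. Of 17 Kupffer cell and macrophage markers 3 were lower and 0 higher, Gpnmb, Trem2 and Cd9, with sums of 238 to 514 CPM in KO and 372 to 634 CPM in WT. Here too KO 5 was the highest KO library, with KO 1 to KO 4 at 238 to 429 CPM. All 17 values were negative, with a median of -0.426. Gpnmb was low, at 0.20 to 0.66 CPM in KO and 1.09 to 3.87 CPM in WT. No defining marker of these types was at 0 in any library. Portal fibroblast and mesothelial markers had 0 of 12 called, with Dpt nearest to the threshold (-1.03, edgeR adjusted p = 0.0592), cholangiocyte markers 0 of 8, and hepatocyte markers 1 of 9, Alb, which was lower (-0.80, edgeR adjusted p = 0.0294). Without KO 5 the calls of Alb (edgeR adjusted p = 0.0945) and Cd9 (0.0682) were lost. The part of these cell types in the collagen results was not tested.

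KO and C247S KI livers differed in genes of these lists as well, where 5.85% of all genes were called lower and 4.41% higher. Among quiescent stellate cell markers, Ednrb was at 5.32 to 7.57 CPM in KO and 4.51 to 14.8 CPM in C247S KI and was lower in KO (-0.82, edgeR adjusted p = 0.0336), with the call lost without KO 5 (edgeR adjusted p = 0.0653). Pth1r (0.78, edgeR adjusted p = 0.00201) and Angptl6 (0.65, edgeR adjusted p = 0.0193) were higher. In the proteases and inhibitors 3 of 22 were higher and 5 lower, with Timp3, the matrix-bound inhibitor, at 17.5 to 22.8 CPM in KO and 28.6 to 43.7 CPM in C247S KI (-0.89, edgeR adjusted p = 0.0024). Timp3 was called lower in KO than in WT as well (-0.77, SE 0.16). Adamts4 (-2.75) and Plaur (-1.37) were lower here too. Adamts2 and Pcolce, the enhancer of procollagen C-proteinase, were the 2 of 25 folding and trimming genes that fell, and the matrilin Matn2 the 1 of 28 proteoglycans and glycoproteins. The calls of Pcolce (edgeR adjusted p = 0.0856) and Matn2 (0.0766) were lost without KO 5. Of the other collagen chains 0 of 25 were called, with Col15a1 nearest (-1.11, edgeR adjusted p = 0.0536).

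Cell type markers in the same comparison, against the same shares of all genes, gave Cnn2 as the 1 of 16 contractile markers that fell (-0.55, edgeR adjusted p = 0.0262) and Pi16 as the 1 of 12 portal fibroblast and mesothelial markers (-0.73, edgeR adjusted p = 0.0116). Lyve1 fell in the endothelial list (-1.47, 1 of 16), Cd9 and Gpnmb in that of macrophages (2 of 17), and Spp1, the osteopontin gene, and Sox9 in that of cholangiocytes (2 of 8). Alb and Fgb, the fibrinogen β chain, fell among hepatocyte markers (2 of 9). Without KO 5 the calls of Gpnmb (edgeR adjusted p = 0.0523), Alb (0.0679) and Fgb (0.0645) were lost. Of the 26 genes that the naming rule gave as called between KO and C247S KI, 17 were also called without KO 5.

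Between C247S KI and WT, 0 genes of these 13 lists passed the edgeR test. The log2 fold change of Lamc3 was 1.38 (edgeR adjusted p = 0.288), with Sox9 at 0.87 (edgeR adjusted p = 0.288) and the fibronectin gene Fn1 at 0.46 (edgeR adjusted p = 0.364) on the same scale. Negative values that did not pass either were those of Tpm2 of contractile cells (-0.79, edgeR adjusted p = 0.236), the fibromodulin gene Fmod (-0.92, edgeR adjusted p = 0.318) and the macrophage genes Marco (-1.13, edgeR adjusted p = 0.352) and C1qa (-0.75, edgeR adjusted p = 0.371). In the macrophage list 15 of 17 values were negative, with a median of -0.626. In the cholangiocyte list 0 of 8 were negative, with a median of 0.536. The lowest adjusted p was that of Bmp1, a procollagen C-proteinase, at 156.9 ± 25.9 CPM in C247S KI and 101.9 ± 15.3 CPM in WT (SD, n = 5 each; 0.62, edgeR adjusted p = 0.120).

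**Figure D5:**
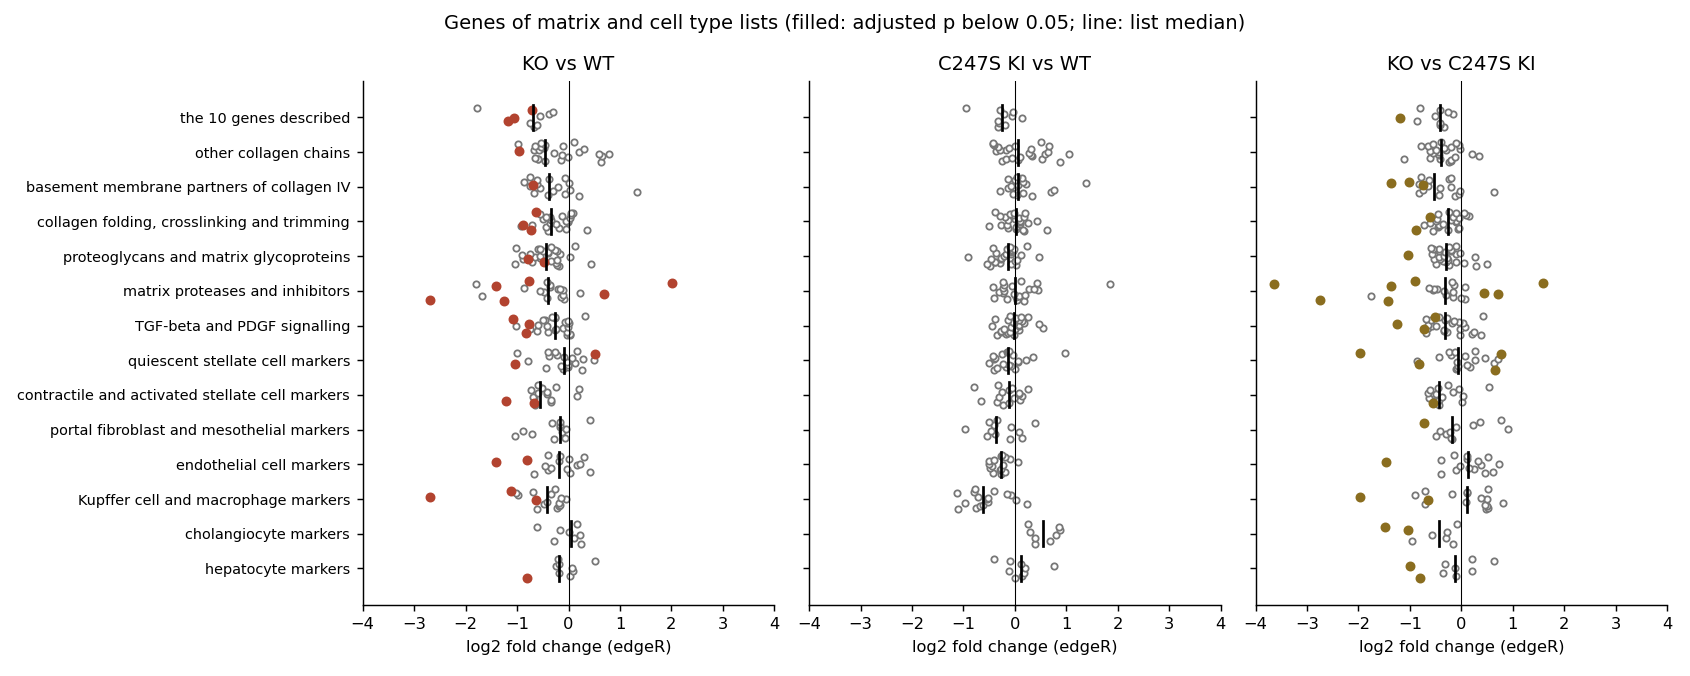
Log2 fold change of each tested gene of the matrix and cell type lists in KO vs WT, C247S KI vs WT and KO vs C247S KI, with filled points where the edgeR adjusted p is below 0.05 and a line at each list's median. In KO vs WT the medians lie below 0 in all lists but that of cholangiocyte markers (0.0581). They are -0.688 for the 10 genes described, -0.453 for the other collagen chains, -0.552 for contractile markers and -0.426 for macrophage markers. The middle panel has no filled point.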

How the data were processed

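The authors deposited 1 table of estimated counts (whole numbers, 1 row a transcript). Per the submitters' processing notes, Trimmomatic 0.39, kallisto 0.50.1, DESeq2 and mm10 were used; the roles are not stated, and a transcript set was not given in the sources used here. In estimated counts, a read with several matching transcripts is shared out, which makes genes with near-identical copies uncertain. Transcripts were matched to GENCODE M21 by identifier without version (114331 of 115911, 98.64%) and summed per symbol. The 1580 unmatched ones, 0.366% to 0.459% of counts, were left out.

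Genes were filtered with filterByExpr (minimum count 10, total 15) and all 15 libraries were fitted in 1 model with edgeR 4.0.16 (R 4.3.3): TMM factors, group means, quasi-likelihood test and Benjamini-Hochberg adjustment over 13916 genes, with 0.05 as the threshold. The SE is the log2 fold change over the root of F, and 95% intervals use the test's own degrees of freedom. Log2 CPM used a prior count of 2. At these totals, counting error limits Timp1 most. The procedure was tested on simulated data.

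The members and lists were chosen with earlier results of these data known. Named are the 10 genes and Txnip, up to 4 called genes of each list and comparison with the lowest p (2 as values where none is called, of which some are not reported here), and the 5 genes most like Col1a1 and Col4a1 with a mean of at least 1 CPM. Alternatives were DESeq2 1.42.0, limma-voom with limma 3.58.1, RLE factors, upper-quartile factors, other count filters, only the 2 groups compared, a replicate block, 1 surrogate variable (sva 3.50.0), protein-coding transcripts, and leaving out each library. A fit that leaves out C247S KI 3, C247S KI 5 and WT 1, and the lung and granulocyte lists, were added after seeing the data. Figures used Python 3.11.15 and matplotlib 3.10.9.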

Additional observations from a re-analysis of the deposited data

Results flagged for a closer look

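In 45 sets of 5 libraries, 5 had a library whose gap to the nearest other exceeded 0.71 of the range, where chance gives about 1 in 20. Within KO, KO 5 had a Col1a1 over Col1a2 ratio of 1.27 (others 1.94 to 2.04), a Col4a1 over Col1a1 ratio of 1.16 (others 0.145 to 0.243) and a Col3a1 over Col1a1 ratio of 0.8 (others 0.236 to 0.364), all with Col1a1 at 21.3 CPM. Col4a2 was at 20.2 CPM in KO 2 (others 24.5 to 25.4). Txnip was at 319.9 CPM in WT 3 (others 180.4 to 218 CPM).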

How the results depend on the processing

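No value of the 10 genes or Txnip that was called changed sign in any alternative, and all 258 fits of the 10 genes in KO against WT were negative. Col4a1 and Sparc kept their calls between KO and WT in every fit, and Col4a1 between KO and C247S KI. Between KO and WT, 939 genes were called, against 1505 with DESeq2, 1542 when C247S KI 3, C247S KI 5 and WT 1 were left out, and 521 to 1259 when 1 library was left out. Of the 10 genes 3 were called, against 5 with DESeq2 (with Col4a2, adjusted p = 0.0469, and Timp1, 0.0499), 5 without those 3 libraries and 2 to 5 when 1 library was left out. Between C247S KI and WT, 12 genes were called, against 65 with DESeq2, 20 with no count filter, 6 with only the 2 groups, and 4 to 24 when 1 library was left out. In KO against C247S KI, 1427 genes were called (784 to 2272 when 1 library was left out), and 1 of the 10 genes, against 3 with DESeq2, 2 with a mean count of at least 50, 2 with only the 2 groups, 2 with a surrogate variable and 1 to 3 when 1 library was left out. Txnip in KO against C247S KI was -0.86 without KO 4 (edgeR adjusted p = 0.0576; -1.13 to -0.77 when 1 library was left out). The causes were not tested.

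Replicate numbers are shared between groups, but nothing says that they pair animals, and same-numbered libraries correlated at -0.141 to 0.381 in their deviations. With the replicate block Col3a1 in KO against WT had an edgeR adjusted p of 0.0577 (log2 fold change -1.20), and 6 genes were called between C247S KI and WT. Another scaling moved the median of all genes by less than 0.1.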
